A study of Oryza sativa with 6 samples.

Results

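MADS14 and MADS18, which encode MADS-box transcription factors of the floral transition, and PRR37 and PRR73, which encode pseudo-response regulators of the circadian clock, were followed in rice seedlings with altered OsRDR3. OsRDR3 is an RNA-dependent RNA polymerase, a type of enzyme that copies RNA into double-stranded RNA. The 4 genes were taken by name from the gene columns of the deposited tables, which hold 6922 loci in all. Each name matched 1 locus, and all 4 were found in the table that compares libraries labelled knock-down (KD) with wild type, while PRR37 and PRR73 alone were found in the table for over-expression (OE).

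In rice, MADS14 and MADS18 belong to the APETALA1/FRUITFULL-like clade, whose members act in the shoot apex when the meristem turns from making leaves to making an inflorescence. They lie downstream of the mobile florigen proteins, which are made in leaves. PRR37 and PRR73 belong to a family of pseudo-response regulators, relatives of two-component response regulators that lack the phosphate-accepting residue and act as transcriptional repressors in the clock. PRR37 is also a heading date gene that delays flowering in long days. Transcripts of PRR genes are known to cycle over the day, but the hour of harvest was not given in the sources used here.

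Seedlings were of the indica cultivar Pusa Basmati 1 and were 5 weeks old. The 6 libraries comprised 2 of wild type, 2 of OsRDR3 over-expression and 2 labelled as OsRDR3 knock-down, and the seedlings were taken as vegetative tissue. The promoter, the construct and the number of independent lines in each transgenic group were not given in the sources used here. Levels are in FPKM, fragment numbers adjusted for transcript length and library size, with 1 value per group that the authors pooled over its libraries, so no spread between replicates and no sequencing depth can be given for any value. A gene was called where the authors' q, their p adjusted over all loci tested, was under 0.05. Loci counted as having fallen or risen are those called lower or higher, and other listed loci may also lie below or above wild type.

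The polymerase locus that may be the transgene's target, BGIOSGA002194, was high in both transgenic groups. In the authors' deposited tables it went from 0.190 FPKM to 69.5 FPKM between wild type and the KD-labelled libraries, and from 0.198 FPKM to 58.7 FPKM between wild type and over-expression. Neither table gives the name OsRDR3 for it. If it is the target, its level does not show a knock-down. As the construct was not given, reads from the transgene and from the gene itself cannot be told apart. The group is therefore named by its label, and no result is read as loss of the gene.

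All 4 genes were below wild type in the KD-labelled libraries, and all 4 were called. MADS14 differed most, with 8.42% of its wild-type level left, and PRR73 differed least, with 66.4% left. MADS18 and PRR37 kept 58.8% and 54.6%. In over-expression PRR37 also fell, to 62.9% of wild type, while PRR73 stood at 71.9% and did not pass the test. The 4 genes called lower are to be read against a background in which 36.7% of the 4341 listed loci, or 9.04% of the 17618 loci that the q-values imply were tested, were called lower in the KD-labelled libraries. For over-expression the same shares were 13.6% of 4295 listed loci and 3.32% of 17596 tested. Loci called higher made up 17.6% of those listed for the KD-labelled libraries and 37.9% of those listed for over-expression. At the stricter q under 0.01 PRR37 was the 1 gene of the 4 called in the KD-labelled libraries, where 22.2% of listed loci were called lower, and 0 of the 2 listed were called in over-expression, where the share was 5.4%. In Cuffdiff's test both listed genes had an unadjusted p under 0.05 there, and no listed locus has a p above 0.05.

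**Figure D1:**
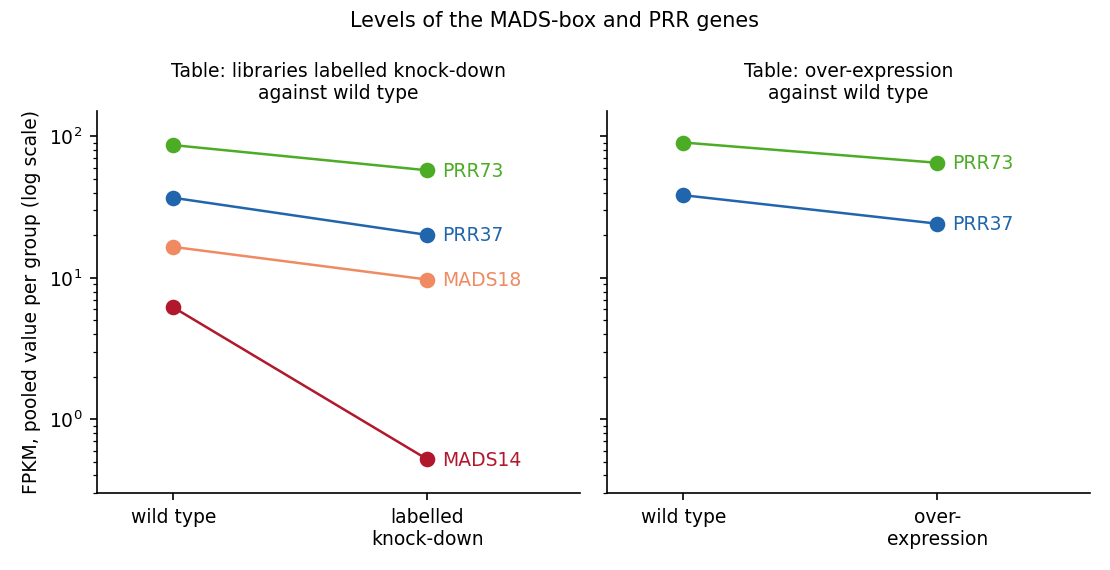
FPKM of each gene in wild type and in the transgenic group, on a log axis, with 1 point per group as pooled by the authors and no error bars because single libraries are not in the tables. The lines for MADS18, PRR37 and PRR73 slope gently downward, whereas MADS14 drops from 6.18 to 0.520 FPKM, and the over-expression panel holds PRR37 and PRR73 alone.

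MADS14 (BGIOSGA009798) is a floral meristem gene and spans 35237558 to 35246738 on chromosome 3. As elsewhere in the tables, the build was not given in the sources used here. Its pooled level was 6.18 FPKM in wild-type plants and 0.520 FPKM in the KD-labelled libraries, an 11.9-fold difference. The authors' deposited table gives MADS14 a log2 fold change of -3.57, p = 0.0017 and q = 0.0167. It was the 11th lowest of the 1592 loci called lower, by log2 fold change, and the lowest of those with a symbol or a protein name other than uncharacterized. The remaining level is below 1 FPKM, so the size of the fold is uncertain. With a pseudocount of 1 FPKM added to both groups the log2 fold change of MADS14 was -2.24. Differences of this size did not always pass the test. Of the 20 listed loci whose log2 fold change was at or below that of MADS14, 11 were called, and the q of the 20 ran from 0.000868 to 0.172 in the authors' deposited table.

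MADS18 (BGIOSGA026097), the other gene of the clade in the tables, spans 22905709 to 22910553 on chromosome 7. Its level was 16.5 FPKM in wild-type plants and 9.72 FPKM in the KD-labelled libraries, a 1.70-fold difference. In the authors' deposited table its log2 fold change was -0.77, with p = 0.0013 and q = 0.0136. MADS18 thus had a p close to that of MADS14 with a far smaller fold. Of the 1592 loci called lower, 1121, MADS18 included, had a log2 fold change as low or lower. In wild type MADS18 was 2.68 times as high as MADS14, and in the KD-labelled libraries 18.7 times as high. The difference between the folds of the pair was not tested, as the tables hold no spread.

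PRR37 (BGIOSGA026452), the heading date and clock gene, spans 27744693 to 27755624 on chromosome 7. In the KD-labelled table its wild-type level was 36.8 FPKM and its transgenic level 20.1 FPKM. Its log2 fold change there was -0.87, with p = 5e-05 and q = 0.000868 in the authors' deposited table, the lowest values that any locus of that table has and shared by 912 loci. In the table for over-expression PRR37 had a wild-type level of 38.4 FPKM and a transgenic level of 24.1 FPKM. The log2 fold change of PRR37 in over-expression was -0.67, with p = 0.0008 and q = 0.0107 in the authors' deposited table. PRR37 was thus lower than wild type in both tables and was called in each.

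PRR73 (BGIOSGA010964), a close relative of PRR37 in the clock, spans 10638269 to 10645890 on chromosome 3. It was the most abundant of the 4 genes, at 86.8 FPKM in wild-type plants and 57.6 FPKM in the KD-labelled libraries. The log2 fold change was -0.59, with p = 0.0017 and q = 0.0167 in the authors' deposited table. In the table for over-expression PRR73 had a wild-type level of 90.5 FPKM and a transgenic level of 65.0 FPKM. Its log2 fold change there was -0.48, with p = 0.0185 and q = 0.0991 in the authors' deposited table, so PRR73 was not called. In both tables the fold of PRR73 was nearer to 1 than that of PRR37, and this difference between the genes was not tested.

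The wild-type libraries are shared by both comparisons, so the lower PRR levels in the transgenic groups do not rest on separate controls. The wild-type FPKM of the same locus was 1.043 times as high in the over-expression table as in the other one, at the median of 1714 loci found in both, and the ratio ran from 1.039 to 1.047. PRR37 and PRR73 each had this ratio of 1.043. The tables were therefore scaled separately by a nearly constant factor, and the transgenic levels are best set side by side as a share of the wild type of their own table. By that share the KD-labelled libraries held 0.869 times the PRR37 level of over-expression and 0.923 times the PRR73 level. These are differences of -0.20 and -0.11 on the log2 scale between pooled values and were not tested. MADS14 and MADS18 have no such pair, because no over-expression level of either gene was analysed here. Their absence from that table does not show that they were unaltered. The ranks behind the q-values imply 276 loci at p of at most 0.05 that the over-expression table does not list.

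Because FPKM is scaled by length, the levels of the 4 genes can be ordered within a group. In wild type the order was PRR73, PRR37, MADS18 and MADS14, each 2.36, 2.23 and 2.68 times as high as the next in the KD-labelled table. In the KD-labelled libraries the order was the same, with steps of 2.86, 2.07 and 18.7. In over-expression PRR73 was 2.69 times as high as PRR37. Without a spread it cannot be said which neighbours in this order differ beyond their error.

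**Figure D2:**
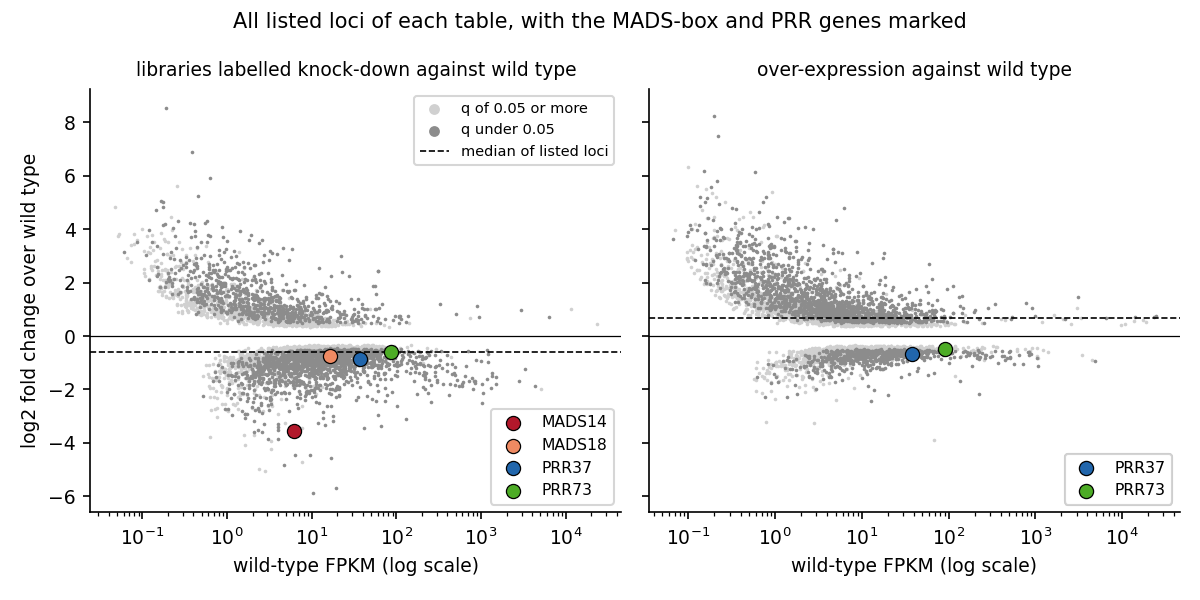
Log2 fold change over wild type against the wild-type FPKM (log axis) of every listed locus, in the KD-labelled table (left) and for over-expression (right); dark points passed q under 0.05. MADS18, PRR37 and PRR73 lie close to the dashed median of -0.58 on the left, MADS14 lies far under it at -3.57, and on the right PRR37 and PRR73 lie under 0 while the median is 0.67.

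The tables carry the authors' own label of direction, and these labels split the 4 genes. Listed loci with a log2 fold change above 1 are marked up and those under -1 down, whatever their q, and all others are marked neutral. MADS14 was marked down in the authors' deposited table, as were 24.1% of the loci listed for the KD-labelled libraries. MADS18, PRR37 and PRR73 were marked neutral although their q was under 0.05, and they are among 1093 called loci so marked in that table. In over-expression PRR37 was marked neutral with a q of 0.0107 in the authors' deposited table, 1 of 1135 such loci. A list made from these labels would hold MADS14 and none of the other 3 genes.

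Listed loci were mostly lower in the KD-labelled libraries and mostly higher in over-expression, with median log2 fold changes of -0.58 and 0.67. Relative to those medians the log2 fold changes of MADS14, MADS18, PRR37 and PRR73 came to -2.99, -0.18, -0.29 and -0.01 in the KD-labelled libraries. Seen against the other listed loci of that table, PRR73 was at the middle. In over-expression PRR37 and PRR73 stood at -1.34 and -1.15 relative to the median, on the side of the rarer direction. These medians are over loci listed at p of at most 0.05 and are not those of all genes.

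Other genes of the same pathways were sought by lists of symbols. Of 44 flowering-time symbols, which include the florigen genes and their regulators, MADS14 and MADS18 were the 2 found in the KD-labelled table, and 0 were found for over-expression. Of 26 clock symbols, PRR37 and PRR73 were the 2 found in each table. None of 23 floral organ identity genes was listed in either table, nor was any protein named for a CCT domain or CONSTANS. A symbol was given for 216 and 210 of the listed loci, so most genes of these pathways would not be found by name.

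Apart from the PRR genes, the proteins found by name as response regulators in the tables were all of type A. Sequences were not compared. Type-A response regulators take a phosphate in cytokinin signalling and dampen the response to that hormone. All 5 of those listed for the KD-labelled libraries were below wild type, and 3 of them fell, where 36.7% of all listed loci did. Their median log2 fold change was -1.44, against -0.58 over all listed loci. RR10 fell from 36.8 to 9.77 FPKM, and its log2 fold change was -1.91 with q = 0.000868 in the authors' deposited table. RR9, which like RR10 encodes a type-A regulator, fell from 25.6 to 7.88 FPKM, to 30.7% of wild type. RR9 and RR10 are near-identical copies, so reads could be divided between them and each value is uncertain. Both are counted among the 3 that fell and in the median, which therefore do not rest on wholly separate loci. RR4 fell from 27.2 to 13.3 FPKM, to 48.8% of wild type. RR1 and RR6 did not pass the test, with log2 fold changes of -1.44 and -1.09 and q of 0.0538 and 0.0545 in the authors' deposited table.

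In over-expression RR4 and RR10 were the 2 type-A regulators listed, and both fell, where 13.6% of all listed loci did. RR10 went from 38.4 to 21.7 FPKM, with a log2 fold change of -0.82 and q = 0.00421 in the authors' deposited table. RR4 went from 28.4 to 18.3 FPKM, with a log2 fold change of -0.63 and q = 0.027 in the authors' deposited table. The median of the pair was -0.73, against 0.67 over all listed loci. For RR10 and RR4, as for PRR37, the share of wild type left was smaller in the KD-labelled libraries than in over-expression, and these differences were not tested.

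**Figure D3:**
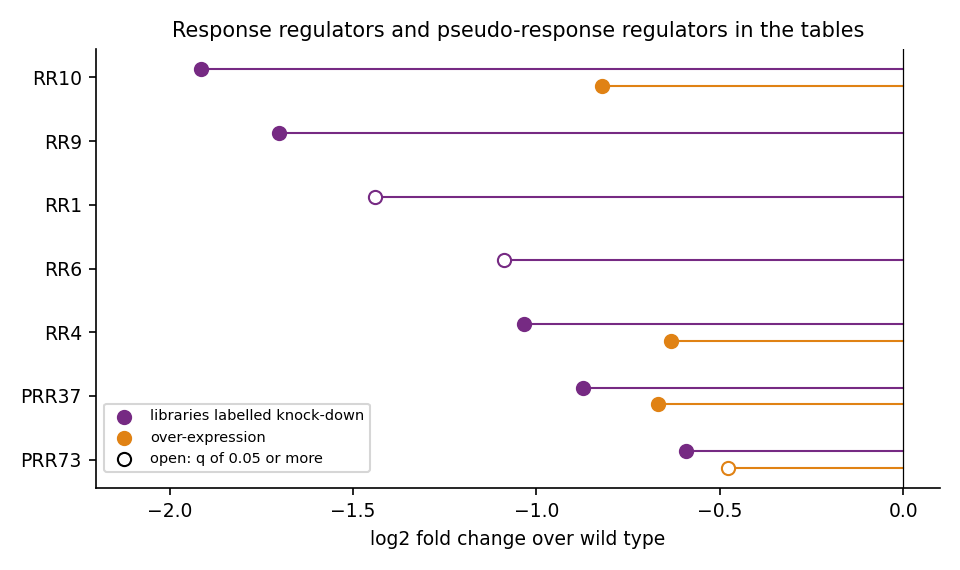
Log2 fold change over wild type of the 7 response regulators and pseudo-response regulators found by name, for the KD-labelled libraries (purple) and over-expression (orange); open circles did not pass q under 0.05, and a missing circle means that the gene is not in that table. All values lie under 0, from -1.91 for RR10 to -0.59 for PRR73 in the KD-labelled libraries and from -0.82 to -0.48 in over-expression.

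Gene Ontology terms in the tables give a wider set that does not depend on symbols. The phosphorelay term, which holds PRR37, PRR73 and the type-A regulators, had 12 listed loci in each table. In the KD-labelled libraries 7 of them fell and 2 rose, with a median log2 fold change of -0.78. Those that fell include PRR37, PRR73, RR4, RR9 and RR10, already described above. Without PRR37 and PRR73 the counts were 5 of 10 falling and 2 rising. Over all listed loci there 36.7% fell and 17.6% rose, and the median was -0.58. In over-expression 7 fell and 0 rose, all 12 were below wild type, and the median was -0.56. Those 7 include PRR37, RR4 and RR10, and without PRR37 and PRR73 the counts were 6 of 10 falling and 0 rising. For all loci listed there, 13.6% fell and 37.9% rose, and the median was 0.67. At q under 0.01 the 7 that fell in over-expression came down to 1, where 5.4% of all listed loci were called lower. HK3, a probable histidine kinase of the cytokinin pathway, was 1 of the 2 that rose in the KD-labelled libraries, from 10.4 to 16.3 FPKM, and the authors' deposited table gives a log2 fold change of 0.64.

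Terms for the circadian rhythm and photoperiodism gave no common direction in the KD-labelled libraries. Of 28 listed loci 8 fell and 7 rose, with a median of -0.43, where 36.7% of all listed loci fell and 17.6% rose. In over-expression 6 of 20 fell and 3 rose, where 13.6% and 37.9% of all listed loci did. The median was -0.43, against 0.67 for all listed loci. At q under 0.01 the counts in over-expression were 1 and 1, where 5.4% of all listed loci were called lower. The share called higher at that threshold was not computed. PRR37, PRR73 and the MADS genes do not carry these terms in the tables, so the counts hold none of them. Named loci called under these terms included AGPsma, a subunit of ADP-glucose pyrophosphorylase in starch synthesis, with 4.71 FPKM in wild type and a fall to 2.02 FPKM in the KD-labelled libraries. AGPsma rose from 4.92 to 7.70 FPKM in over-expression, and the difference between the groups was not tested. Another such enzyme locus, BGIOSGA027135, fell from 55.1 to 37.5 FPKM in the KD-labelled libraries. HK3, also counted under these terms, rose there from 10.4 to 16.3 FPKM. CATB, a catalase, which breaks down hydrogen peroxide, rose from 30.7 to 53.3 FPKM in over-expression. RR10 also carries the circadian rhythm term.

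Terms for flower development and the floral meristem were carried by MADS18 and 75 other loci in the KD-labelled libraries. Many loci counted under the circadian and photoperiod terms, AGPsma and HK3 among them, are also counted here. The counts of these groups are therefore not independent. Of the 76, 22 fell and 18 rose, with a median log2 fold change of -0.48, where 36.7% of all listed loci fell and 17.6% rose. In over-expression 14 of 90 fell and 31 rose, with a median of 0.60, near the 13.6% and 37.9% of all listed loci. Relative to the median of all listed loci the counts in over-expression were 22 lower and 23 higher. Subtracting that positive median counts some loci called higher than wild type as lower, and by construction it divides all listed loci evenly. The same counts over all listed loci were not computed, so the near-equal numbers say nothing of the flower development terms. ARP7, an actin-related protein, fell from 4.74 to 2.19 FPKM in the KD-labelled libraries. An alpha-galactosidase (BGIOSGA033189) rose from 39.5 to 80.9 FPKM there. The named loci with the largest changes in over-expression were not flowering regulators by name. They were the replication helicase subunits MCM2 (BGIOSGA035270), MCM5 and MCM3, with log2 fold changes of 1.74, 1.73 and 1.69, and an S-acyltransferase (BGIOSGA014476) with 1.40, in the authors' deposited table. The medians over all listed loci were -0.58 and 0.67.

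**Figure D4:**
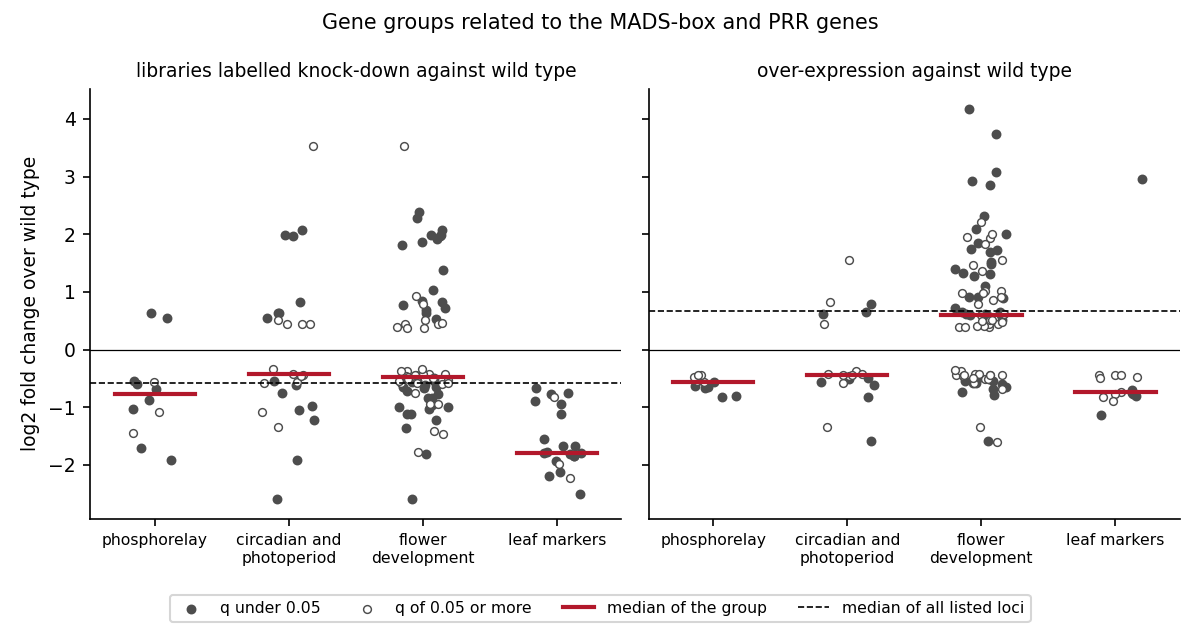
Log2 fold change over wild type of each listed locus of 4 gene groups, with filled circles for q under 0.05, a red bar at the group's median and a dashed line at the median of all listed loci. The phosphorelay group lies wholly under 0 in over-expression with a median of -0.56, the circadian and flower development groups spread to both sides of 0 in both panels, and leaf markers lie under 0 in the KD-labelled libraries with a median of -1.79. The phosphorelay, circadian and flower development groups share loci.

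MADS18 carries terms for the meristem that few other loci share. Of 7 listed loci with the term for meristem structural organization, 4 fell and 1 rose in the KD-labelled libraries, and 1 fell and 3 rose in over-expression. Both listed loci with the term for maintenance of floral meristem identity fell in the KD-labelled libraries, MADS18 being one of the 2. MADS14 carries no such term in the tables, only general ones for transcription, DNA binding, protein dimerization and the nucleus. Among 114 loci with the term for sequence-specific transcription factors, 30 fell and 25 rose in the KD-labelled libraries, a smaller share falling than among all listed loci. Of all listed loci 36.7% fell and 17.6% rose in those libraries, and 13.6% fell and 37.9% rose in over-expression.

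Leaf markers were mostly below wild type as well. All 22 listed loci for chlorophyll a-b binding proteins, PSAH and the small subunit of Rubisco were below wild type in the KD-labelled libraries, 19 of them fell, where 36.7% of all listed loci did, and their summed level was 25050 FPKM in wild type and 7792 FPKM in that group. In over-expression 14 of 15 were below wild type, 5 fell and 1 rose, where 13.6% and 37.9% of all listed loci did, and the summed level was 12113 FPKM in wild type and 7238 FPKM in that group. The sums are over the loci listed in each table, which are not the same loci. Of 11 root markers 2 were listed for the KD-labelled libraries, NAS1 and NAS2, which make the metal chelator nicotianamine, and their summed level was 1.23 FPKM in wild type and 5.63 FPKM there. NAS2 rose, with q = 0.00616 in the authors' deposited table, where 17.6% of all listed loci rose. NAS1 did not pass the test, with q = 0.123 in that table, and both genes were below 1 FPKM in wild type. The part of such shifts in the levels of the MADS and PRR genes was not tested. In bulk tissue, fewer cells of a type and less RNA per cell cannot be told apart.

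For each of the 4 genes the annotated loci with the most similar fold changes were found. Likeness was measured for PRR37 and PRR73 as the distance between pairs of log2 fold changes over both tables, among 333 annotated loci in both. Nearest to PRR37 were a glucose-6-phosphate 1-epimerase (BGIOSGA017060) at a distance of 0.0183, NSI, a chloroplast serotonin N-acetyltransferase, at 0.0662, and zeta-carotene desaturase (BGIOSGA025365), an enzyme of carotenoid synthesis, at 0.0805. The epimerase was called in neither table, with q of 0.0695 in the KD-labelled libraries and 0.177 in over-expression in the authors' deposited tables. NSI was called in the KD-labelled libraries but had a q of 0.103 in over-expression in the authors' deposited table. The desaturase, like PRR37, was called in both, and fell from 22.0 to 11.8 FPKM in the KD-labelled libraries and from 22.9 to 13.7 FPKM in over-expression. Nearest to PRR73 were sedoheptulose-1,7-bisphosphatase (BGIOSGA009376), an enzyme of the Calvin cycle, at 0.0225, an amine oxidase (BGIOSGA016027) at 0.0229 and a GrpE protein homolog (BGIOSGA015089) at 0.0383. The bisphosphatase stood at 107 FPKM in wild type and fell to 70.5 FPKM in the KD-labelled libraries. None of the 3 loci nearest to PRR73 was called in over-expression, nor was PRR73.

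MADS14 and MADS18 were compared over a single fold change, that of the KD-labelled libraries, among 269 annotated loci called in that table and not found in the other. MADS18 had near neighbours, the closest being a chlorophyll a-b binding protein (BGIOSGA030468) at a distance of 0.000722, a probable chloroplast 6-phosphogluconolactonase (BGIOSGA029395) at 0.0017 and adenosylhomocysteinase (BGIOSGA034046) at 0.00263. MADS14 had none so near among these annotated loci. The closest were a WAT1-related protein (BGIOSGA011443) at 0.883, a xyloglucan endotransglucosylase/hydrolase (BGIOSGA035393) at 0.992 and a type 2 metallothionein (BGIOSGA005278) at 1.13, all with smaller falls than MADS14. Loci without a symbol or protein name were left out of the search. Among those left out, BGIOSGA034802 was called in the KD-labelled libraries with a log2 fold change of -3.57, as for MADS14. With 1 or 2 values per locus, likeness of this kind describes the size of the fold and no more.

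Listed loci near the 4 genes did not all share their direction. Within 100 kb of MADS14, 2 other loci were listed for the KD-labelled libraries, and both rose. Within 100 kb of PRR73, 2 of 5 other listed loci fell and 0 rose in that table, and 0 of 6 fell and 3 rose in over-expression. Over all listed loci 36.7% fell and 17.6% rose in the KD-labelled libraries, and 13.6% fell and 37.9% rose in over-expression. Near PRR37 the counts were 1 of 2 falling and 0 rising, and 0 of 3 falling and 2 rising. The 1 locus listed near MADS18 was not called. No listed locus overlapped any of the 4 genes.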

How the data were processed

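RNA sequencing of 6 libraries was represented by 2 tables, 1 for each transgenic group set against wild type. Cufflinks 2.2.1 and Cuffdiff were used, per the submitters' processing notes and the aligner and genome build were not given in the sources used here. Per the file headers, the authors deposited FPKM values pooled to 1 per group and locus, and 0 columns of single libraries were left unassigned. The deposited log2 fold changes were recomputed from the FPKM columns and matched a plain ratio, transgenic over wild type, without any added constant. The p-values and q-values are those the authors deposited, and the highest p listed was 0.05. Depth is unknown. The labels do not say whether replicates were separate plants, so p-values may reflect technical spread alone.

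The number of loci tested was worked out from each q divided by its p, as the smallest number giving whole ranks within a relative tolerance of 3e-06, at 89.8% and 91.1% of p levels. This step was tested on simulated data. The ranks imply 279 and 276 loci up to that p that are not analysed here.

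Members and lists were chosen with earlier results of these data known. Named genes were the 4 members, all listed loci of the symbol and protein-name lists, the 4 called named loci of largest change per Gene Ontology list, and the 3 annotated loci most like each member. MCM2 is named by its protein name. The count of loci near each gene was chosen after the data were seen. Of 6922 locus identifiers, 0 were found among the RefSeq genes of japonica rice. Computations used Python 3.11.15 with pandas 2.3.3 and numpy 2.4.6.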

Additional observations from a re-analysis of the deposited data

How the results depend on the processing

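Pseudocounts of 1 or 0.1 FPKM cannot alter a sign, and subtracting the positive over-expression median can only lower a value, so the signs under these say nothing of stability. Subtracting the negative median of the KD-labelled table could alter a sign, and the log2 fold changes of the 4 genes then ran from -2.99 for MADS14 to -0.01 for PRR73. With the wild type of the other table PRR37 and PRR73 stood at -0.93 and -0.65 in the KD-labelled libraries and at -0.61 and -0.42 in over-expression, a change of wild type too small to turn them. A minimum of 1 FPKM in the higher group left the member calls as they were. At q under 0.01 the called members went from 4 to 1 (PRR37) in the KD-labelled libraries and from 1 to 0 in over-expression, which follows from the stricter threshold. From raw FPKM of the separately scaled tables, a choice made after seeing the data, the log2 of the KD-labelled libraries over over-expression was -0.26 for PRR37 and -0.18 for PRR73. At q under 0.01, counts in over-expression became 1 lower for response regulators, 1 lower for phosphorelay, 1 lower and 1 higher for circadian, and 1 lower and 16 higher for flower development. These lists held 4, 12, 20 and 90 loci there, and 5.4% of all listed loci were called lower. In the KD-labelled libraries the counts became 1 higher for phosphorelay, 4 higher for circadian and 11 lower for flower development. There the lists held 12, 28 and 76 loci, and 22.2% of all listed loci were called lower. Shares called higher at this threshold were not computed, so the counts called higher are not read as results about these lists. At q under 0.05, 37.9% of all listed loci were called higher in over-expression and 17.6% in the KD-labelled libraries. Centring on the median changed over-expression counts to 1 higher for circadian and 22 lower for flower development, beside 23 higher. Such centred counts take some loci called higher than wild type as lower, and the shares of all listed loci under it were not computed. No paired analysis was possible because the tables hold 1 pooled value per group, and for the same reason leaving out single replicates was not run. Depth is unknown, and the level of MADS14 in the KD-labelled libraries was below 1 FPKM.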
